A study of Mus musculus with 12 samples.

Results

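The bases described here are single positions listed as 5-formylcytosine (5fC) both in mouse embryonic stem cells that keep the DNA glycosylase TDG and in cells that lack it. They were chosen by position in the 2 deposited site lists: a control site on autosomes 1 to 19 whose exact base was also in the knockout list, and with no other control site 1 base away. This gave 12857 members, out of 32614 autosomal control sites and 32685 control sites in all. The knockout list held 138649 autosomal sites, 139027 in all, and the members were 9.27% of its autosomal sites.

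5fC is made when TET enzymes oxidise 5-methylcytosine, through 5-hydroxymethylcytosine, and TDG excises it so that base excision repair can put back an unmodified cytosine. Embryonic stem cells have active TET enzymes and are a common model of this cycle of methylation and its removal. Methylation sits mostly in CpG dinucleotides, where each strand has a cytosine and the cytosine of the other strand lies 1 base further on. A base listed without its neighbour can therefore be 5fC on 1 strand of a CpG, and a pair of adjacent listed bases can be 5fC on both.

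The series has 12 libraries in 6 groups of 2 biological replicates, from mES cells of strain C57BL/6-ICR, grown without feeders in serum and LIF. The knockout cells are Tdg -/- and the control cells Tdg fl/fl, and the labels name no Cre for the latter, whose list is called WT. Whether either line is a single clone is not stated. For each genotype there are unlabelled input, input labelled with azido-indandione, and pull-down output, in which labelled 5fC is enriched through biotin and read as T in place of C. Each genotype has 1 list of single positions, with no level, depth, strand or replicate, so differences have no replicate check and no test was run. Ranges in parentheses after a percentage are exact 95% Clopper-Pearson intervals, and those after a difference in points are normal 95% intervals. Both cover counting error only, and sites in clusters are not independent.

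The lists hold no value for Tdg, so the genotypes could not be checked from these values. Positions are taken to be those of mouse build mm9, the build named in the submitters' processing notes. Whether they count from 0 or 1 is not given in the sources used here. The last listed base on chromosome 1, 196298921, lies beyond the last gene end of the GRCm38 annotation, 195291439. A gene end is not the chromosome end, so this does not by itself settle the build. No mm9 sequence or annotation was used, so the members were not tied to genes, exons or promoters, and that each lies in a CpG was not checked.

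Of the 30890 single control bases on autosomes, 41.6% (41.1 to 42.2) were members. Since the rule itself makes this share, it is given as a description. At the edge of the rule, 932 further control bases matched a knockout base but had a control site 1 base away, and were left out. Of those, 542 also had a knockout site 1 base away. Just inside, 6 members had a control site exactly 2 bases away and 14 had one exactly 3 bases away. Just outside, 2353 unshared single control bases had a knockout site exactly 1 base away, 34 had one exactly 2 bases away and 50 exactly 3 bases away. Misses of 2 or 3 bases were therefore few beside misses of exactly 1 base.

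The members were spread over all 19 autosomes, with a density of 5.40 ± 1.32 per Mb (SD, n = 19 autosomes), measured from the first to the last knockout site. Chromosome 11 was the densest, with 1084 members at 9.13 per Mb, and chromosome 17 came next with 656 members at 7.11 per Mb. Chromosomes 19 and 4 followed at 6.60 and 6.46 per Mb. Chromosome 3 was the sparsest, with 580 members at 3.74 per Mb, and chromosome 14 was close to it at 3.85 per Mb. The densest autosome thus had 2.44 times the density of the sparsest (95% interval 2.20 to 2.70). Both were picked as the extremes of the 19 autosomes after their values were seen, and the interval does not cover that choice.

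Relative to the lists themselves the autosomes were much more alike. The members made up 41.5% ± 1.93 (SD, n = 19 autosomes) of an autosome's single control bases, from 38.7% on chromosome 19 (35.7 to 41.8) to 45.3% on chromosome 12 (42.5 to 48.1). The ratio of the highest to the lowest autosome was 1.18 for members per control site and 1.16 for members per knockout site. Members were 9.26% ± 0.405 of an autosome's knockout sites, from 8.52% on chromosome 13 to 9.86% on chromosome 11.

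**Figure D1:**
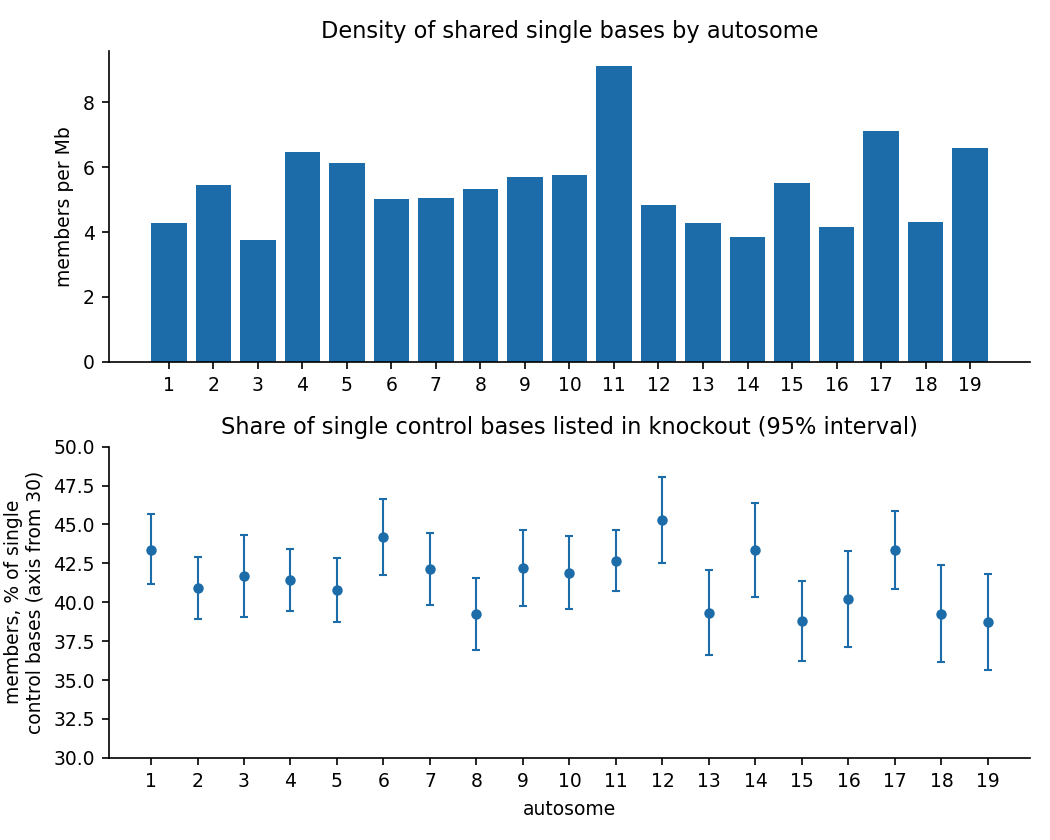
Members per Mb on each autosome (bars, upper panel) and members as a percent of the single control bases of that autosome (points with exact 95% intervals, lower panel, axis from 30%). Density runs from 3.74 per Mb on chromosome 3 to 9.13 on chromosome 11, while the share stays between 38.7% and 45.3%.

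Along the chromosomes, members were more frequent towards the high-coordinate end. Mouse autosomes are numbered from the centromere, which lies at the low-coordinate end. With each span cut into 10 equal parts, the first part held 834 members, 6.49% of all, and the last 2197, or 17.1%. The density was 3.81 ± 2.33 members per Mb in the first part and 9.02 ± 4.18 in the last (SD, n = 19 autosomes), and 18 of 19 autosomes had more members in the last part than in the first. The fullest part was the last or the one before it on 9 of 19. Knockout sites were placed alike, with 6.38% in the first part and 17.2% in the last. The members' share of single control bases was 43.2% (41.0 to 45.4) in the first part and 41.5% (40.2 to 42.9) in the last, so the intervals overlapped.

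In windows of 1 Mb the number of members ranged from 0 to 43, with a median of 3, and 625 of 2423 windows (25.8%) had none. Of these empty windows 496 did hold knockout sites. The fullest was chromosome 11 from 88000000 to 88999999, with 43 members, 56 unshared single control bases and 352 knockout sites. Chromosome 1 from 135000000 to 135999999 followed with 40 members, 27 unshared bases and 311 knockout sites. Across windows the numbers of members and of unshared single control bases were correlated (Pearson 0.882, Spearman 0.868). Both numbers in a window come from the same control list, and depth and sequence content of the windows were not measured. The 323 windows with 30 or more single control bases had a median member share of 41.3%. The lowest and highest of them were picked after their values were seen. Chromosome 7 from 77000000 to 77999999 had 4 members among 37 single control bases (10.8%, 3.03 to 25.4), with 52 knockout sites in the window. Chromosome 1 from 36000000 to 36999999 had 25 members among 40 (62.5%, 45.8 to 77.3), with 178 knockout sites.

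Stretches without any member were long. The longest gap between consecutive members on an autosome ran from 3406181 bases on chromosome 9 to 10763079 bases on chromosome 14, where no member lay between 106288837 and 117051916. These gaps are a description of the members only, with no other set beside them.

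The knockout state of the adjacent base was examined next. The rule did not use it directly, but it is not free of the rule. Of the 932 shared bases left out for a control neighbour, 542 had a knockout site 1 base away, so the share among members depends on that exclusion. In the knockout list 2958 members, or 23.0% (22.3 to 23.7), had a second site 1 base away, and 9899 did not. A label of single-strand 5fC therefore does not hold in the knockout list for these 2958 members, where both bases of the pair were listed. The other 9899 had no listed site 1 base away in either list. Over all autosomal knockout sites the share was 19.5%. Over knockout-only sites, those absent from the control list, it was 18.8% (18.6 to 19.1). The members exceeded the knockout-only sites by 4.16 percentage points (95% interval 3.40 to 4.92). These sets are not independent, since the partners of the 2958 members are themselves knockout-only sites with an adjacent site. The interval does not allow for this.

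The excess had the same sign on all 19 autosomes. It was smallest on chromosome 9, at 1.23 points, and largest on chromosome 16, at 7.90 points. By autosome the members' share averaged 23.1% ± 1.63 (SD, n = 19 autosomes) and that of knockout-only sites 18.9% ± 0.981. On 17 of 19 autosomes the members' share lay above 21.2%, the highest value that knockout-only sites reached on any autosome (chromosome 6). The members' lowest share was 20.5%, on chromosome 9, and their highest 26.8%, on chromosome 16. As the members are themselves knockout sites and were chosen from the same list, this is a description of 2 sets within 1 list, and depth at the sites was not tested.

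**Figure D2:**
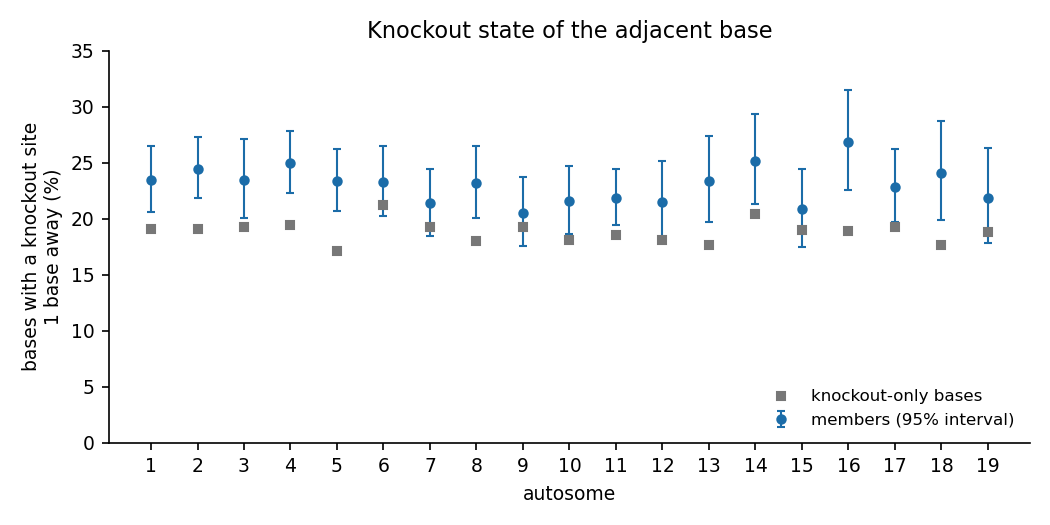
Percent of members (circles, exact 95% interval) and of knockout-only bases (squares) with a knockout site 1 base away, by autosome. The members lie higher on each of the 19 autosomes, between 20.5% and 26.8%, against 17.1% to 21.2% for knockout-only bases.

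Seen from the knockout list, bases in an adjacent pair were members more often than lone bases. Of 27034 paired knockout bases 10.9% (10.6 to 11.3) were members, and of 111615 lone knockout bases 8.87% (8.70 to 9.04). The share was higher for paired bases on all 19 autosomes. This largely restates the excess above from the same counts, and is no separate support for it. With control bases that have a control neighbour counted too, 12.9% (12.5 to 13.4) of paired and 9.22% (9.05 to 9.39) of lone knockout bases were in the control list. Of 13518 adjacent knockout pairs, 10289 had neither base in the control list, 2958 (21.9%) had exactly 1 and 271 (2.00%) had both. The middle class is that of the members with an adjacent knockout site, where 1 base of the pair was listed in both genotypes and its partner in knockout cells only.

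The partner lay above or below in similar numbers. It was the base above in 1451 members and the base below in 1507, so that 49.1% (47.2 to 50.9) had it above, and no member had both. In a CpG the forward-strand cytosine has its partner above and the reverse-strand cytosine below. Read this way, the shared bases of these pairs were on the forward and the reverse strand in similar numbers. Of such members 2 to 50 bases apart, 11 of 32 pairs had their partners on the same side (34.4%, 18.6 to 53.2). At 51 to 200 bases 22 of 41 pairs did (53.7%, 37.4 to 69.3), and at 201 to 1000 bases 10 of 22 (45.5%, 24.4 to 67.8). These 3 intervals are wide, and each includes an even split.

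Unshared single control bases had a knockout site 1 base away in 13.0% of cases (12.6 to 13.5), 9.96 points fewer than the members, and fewer on all 19 autosomes. The comparison is not like for like. For a member, the adjacent site is a second listed base of a pair, whereas for an unshared base it is the sole listed knockout base of that pair.

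The bases just beyond the adjacent one were almost empty. Around members, the offsets of 1 base below and above held 1507 and 1451 knockout sites, and the offsets of 2 bases below and above held 7 each. At 3 bases there were 26 below and 30 above, and at 10 bases 73 and 78. Expressed as knockout sites per kb of flanking sequence, the members had 115 at 1 base, 0.544 at 2 bases, 5.74 at 5 to 20 bases, 3.80 at 21 to 50 bases and 0.494 at 501 to 1000 bases. Distances of 2 bases were scarce around the other sets also, with 0.943 per kb for unshared single control bases and 0.981 for knockout-only sites.

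**Figure D3:**
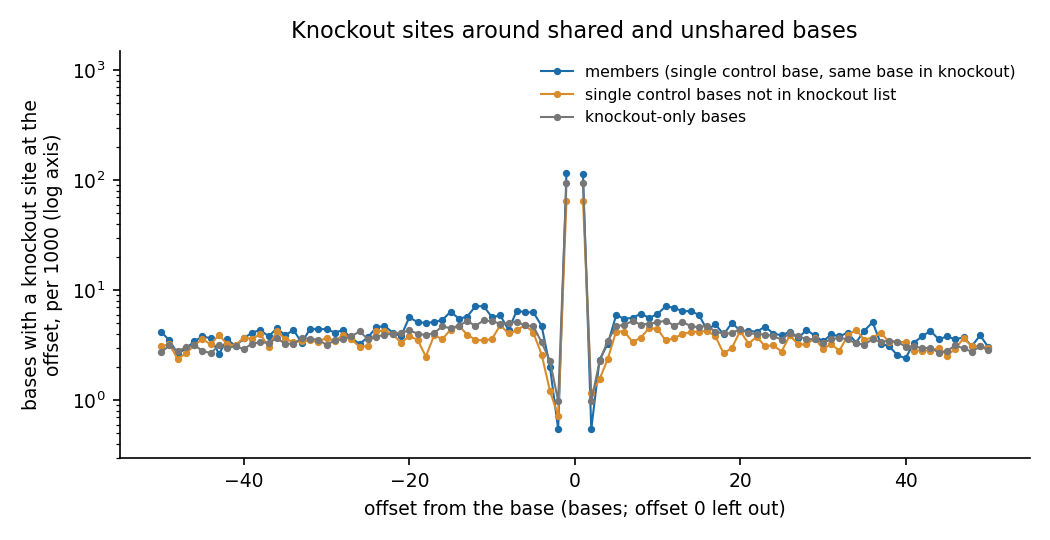
Bases with a knockout site at each offset from -50 to 50 bases, per 1000 bases of each set (log axis, offset 0 left out). All 3 sets have a spike at 1 base, a trough at 2 bases and a low shoulder from about 5 bases, which is higher for members than for the unshared control bases.

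Most members lay among other knockout sites. A further knockout site is any other than the member itself and the base on either side of it, counted within 1 kb unless another distance is given. Such a site was found for 10456 members, or 81.3% (80.6 to 82.0), and none for 2401. Over all autosomal knockout sites the share was 79.6%. The members had 2.04 further sites on average and a median of 2. Exactly 1 was found for 3534 members, exactly 2 for 2841, 3 or more for 4081, 6 or more for 620 and 10 or more for 39, with 15 as the maximum. By autosome the share with a further site ran from 78.9% on chromosome 19 to 83.7% on chromosome 11, and the mean number from 1.78 on chromosome 3 to 2.23 on chromosome 6.

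By this measure the members were close to other sites of the lists. Unshared single control bases had a further site in 80.7% of cases (80.1 to 81.3) and 2.03 further sites on average. The difference of 0.618 points had an interval that includes 0 (-0.269 to 1.50), with members higher on 11 autosomes and lower on 8. Knockout-only sites had one in 79.4% of cases (79.2 to 79.6), 1.92 points fewer than the members (1.21 to 2.63), and fewer on 17 of 19 autosomes.

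At shorter range the members were above both sets. Within 100 bases, 46.8% of members (46.0 to 47.7) had a further knockout site, against 40.0% of unshared single control bases (39.3 to 40.8) and 41.3% of knockout-only sites (41.1 to 41.6). The members were higher by 6.81 points (5.69 to 7.93) than the unshared bases and by 5.51 points (4.60 to 6.41) than knockout-only sites, and on 19 of 19 autosomes in each case. The median distance to the nearest further knockout site was 118 bases for members, 159 for unshared bases and 157 for knockout-only sites. Per kb of flank, members had 1.47 times the knockout sites of unshared bases at 5 to 20 bases and 1.12 times at 21 to 50 bases. At 201 to 500 bases the ratio was 0.862, and at 501 to 1000 bases 0.928. A higher number close by and a lower number farther out thus gave nearly equal totals within 1 kb. The knockout list both chose the members and supplied the neighbours counted here, so these comparisons are a description. The sets are not independent, as a further site of a member can itself be a knockout-only site. The intervals at 100 bases and at 1 kb do not allow for this.

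The same members and unshared bases can be viewed as the share of single control bases that were members. This is the comparison above from the other side, and no separate support for it. The share was 50.1% (48.5 to 51.6) where the nearest further knockout site was 2 to 20 bases away, 43.8% (42.4 to 45.3) at 21 to 50 bases and 43.1% (41.6 to 44.5) at 51 to 100 bases. It was 40.1% (38.7 to 41.6) at 101 to 200 bases and reached its lowest value, 35.3% (33.9 to 36.7), at 201 to 500 bases. Beyond that it was higher again, with 37.7% (35.8 to 39.6) at 501 to 1000 bases, 41.0% (39.4 to 42.5) at 1001 to 10000 bases and 40.5% (38.3 to 42.8) for more distant ones. At 2 to 20 bases the share exceeded the autosome's own mean on 18 of 19 autosomes, and at 201 to 500 bases on 1 of 19. The labels give a fragment length of 100 to 400 bases, and whether fragment length bears on the dip was not tested.

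The number of neighbours, in contrast, hardly moved the share. Members were 40.8% (39.6 to 42.1) of single control bases with 0 further knockout sites within 1 kb, 42.0% (41.2 to 42.8) with 1 to 2, 41.2% (40.2 to 42.3) with 3 to 5 and 43.1% (40.5 to 45.7) with 6 or more.

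The adjacent-base share was compared within the same classes of neighbour number. With 0 further sites, 23.2% of 2401 members (21.5 to 24.9) had a knockout site 1 base away, against 18.1% of knockout-only sites. With 1 to 2 the values were 22.3% and 18.6%, with 3 to 5 they were 23.9% and 19.4%, and with 6 or more 25.3% and 21.5%. The members were higher in each class, by 5.06 points (3.31 to 6.82), 3.62 (2.56 to 4.69), 4.47 (2.98 to 5.95) and 3.83 (0.237 to 7.41). Here too the intervals do not allow for members' partners being among the knockout-only sites. The excess in the adjacent base was therefore present for isolated members as well as for those in dense stretches.

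**Figure D4:**
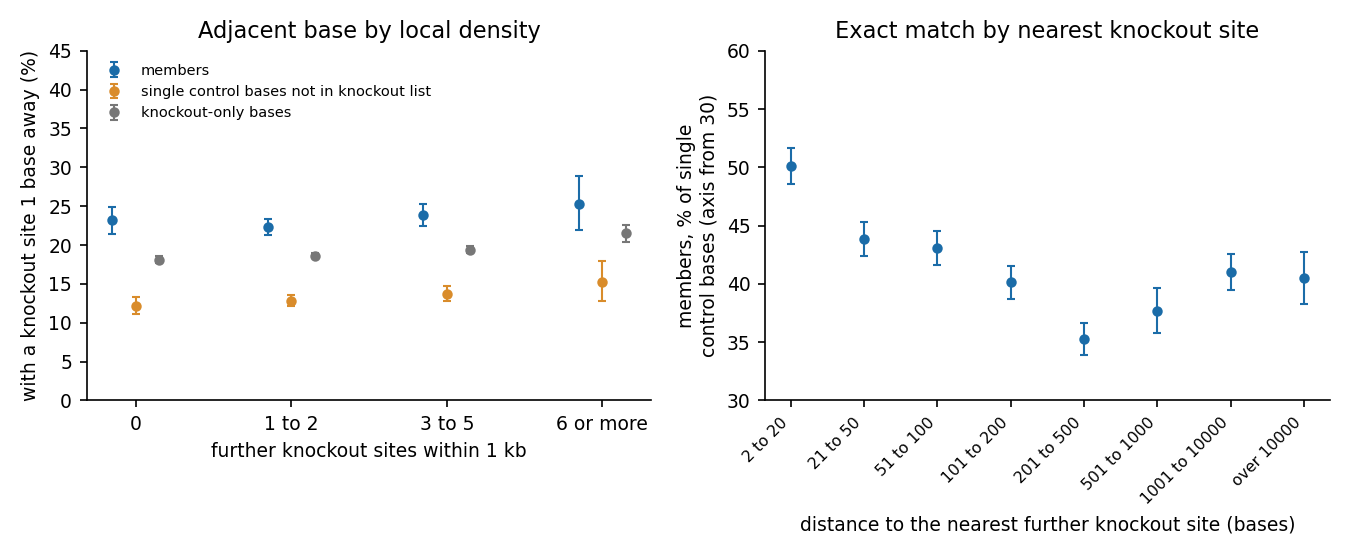
Left, percent of members, unshared single control bases and knockout-only bases with a knockout site 1 base away, by the number of further knockout sites within 1 kb. Right, members as a percent of single control bases by the distance to the nearest further knockout site (axis from 30%), with exact 95% intervals in both panels; the left values hold their order in each class, and the right ones fall from 50.1% to 35.3% and then rise to 41.0%.

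Nearness to other control sites was examined next. Another control site, member or not, lay within 1 kb of 39.8% of members and of 39.6% of unshared single control bases, a difference of 0.205 points (-0.902 to 1.31). The spacing of members among themselves is given as a description, with no other set beside it. The median distance from a member to the nearest other member was 15051 bases. Another member lay within 100 bases of 1171 members (9.11%), within 1 kb of 2561 (19.9%) and within 10 kb of 5471 (42.6%).

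Single control bases that lay very close together tended to be members together. In consecutive single control bases 2 to 10 bases apart, the neighbour of a member was itself a member in 60.2% of cases (53.9 to 66.4), and the neighbour of an unshared base in 37.4% (31.5 to 43.5). Of those 257 pairs, 75 were both members, 99 had 1 member and 83 had none. At 11 to 50 bases the values were 51.1% (48.1 to 54.1) and 41.5% (38.8 to 44.2), over 1201 pairs. At 51 to 100 bases they were 47.2% and 43.3%, with overlapping intervals. At 201 to 500 bases they were 36.3% and 37.3%, and at 1001 to 10000 bases 42.3% and 41.1%. The value beside a member was higher on 14 of 19 autosomes at 2 to 10 bases, 13 of 19 at 11 to 50 bases and 9 of 19 at 51 to 100 bases. Both bases of a pair count in these percentages, so the intervals are too narrow. A neighbour that is a member is itself a knockout site close by. The values at short distances therefore overlap with the excess of further knockout sites above, and are no separate support for it.

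**Figure D5:**
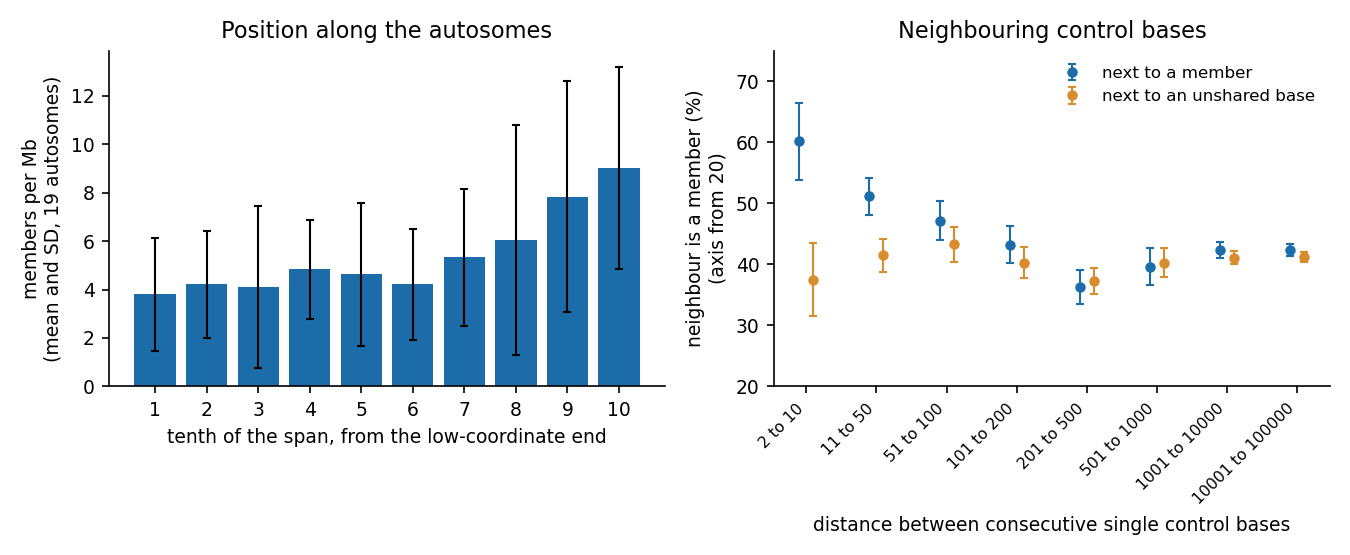
Left, members per Mb in 10 equal parts of each autosome's span (bars are means and lines are the SD over 19 autosomes), rising from 3.81 in the first part to 9.02 in the last. Right, percent of consecutive single control bases that are members, beside a member and beside an unshared base, by the distance between them (axis from 20%, exact 95% intervals), with the values apart at 2 to 50 bases and together from about 100 bases.

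Joining members no more than 1 kb apart left 10296 members on their own and placed 2561 in 1203 runs. Of these runs 1073 had 2 members, 111 had 3, and 19 had 4 or more. The longest run held 7 members on chromosome 6, from 125309138 to 125311123, with 8 control and 11 knockout sites in 1986 bases. Its members stood at 125309138, 125309167, 125310117, 125310432, 125310494, 125310996 and 125311123. At 125310117, 125310494 and 125311123 the base above was also in the knockout list, and the remaining 4 had no adjacent knockout site.

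A second run on chromosome 6, from 111437875 to 111438309, had 5 members, 5 control sites and 6 knockout sites in 435 bases. Every control site of the run was thus a member, and the 1 other knockout site was the base below the member at 111437889. A run on chromosome 11 from 87944748 to 87945739 had 5 members, 7 control sites and 7 knockout sites. Its members at 87945090 and 87945093 were 3 bases apart, and the member at 87945739 had the base above listed in knockout cells. Runs of 5 members numbered 3, and the remaining one lay on chromosome 12 from 20234656 to 20235288.

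Among windows of 10 kb, chromosome 12 from 20230000 to 20239999 held the most members, 8, of which 1 had an adjacent knockout site. It had 15 control sites and 35 knockout sites. The chromosome 12 run named above lies in this window, and its first base, 20234656, is also among the most crowded members named below. Windows with 6 members each started at 154650000 on chromosome 1, 45840000 on chromosome 9 and 96030000 on chromosome 11. They held 7, 7 and 8 control sites and 15, 19 and 16 knockout sites, and 2 members with an adjacent knockout site each. The window on chromosome 2 from 168670000 to 168679999 held 5 members of its 6 control sites, with 12 knockout sites. It was the first, by chromosome and position, of 12 windows with 5 members.

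The most crowded and the most isolated members show how far the surroundings differed. Such extremes were not particular to members: the most further sites within 1 kb was 15 for members, 16 for unshared single control bases and 17 for knockout-only sites. The base at 122960642 on chromosome 5 had 15 further knockout sites within 1 kb, the nearest 12 bases away, and no other control site there. Those at 129099046 on chromosome 5 and 20234656 on chromosome 12 had 13 each, with 4 and 5 other control sites. None of these 3 had an adjacent knockout site. At the other end, 780 members (6.07%) had no further knockout site within 10 kb, and 84 (0.653%) none within 100 kb. Members were 40.5% (38.3 to 42.8) of the 1925 single control bases with none within 10 kb, near their share of 41.6% over all single control bases. The count for 100 kb has no other set beside it. The member at 46294241 on chromosome 3 was 1142129 bases from any other knockout site, and yet had 3 other control sites within 1 kb. Those at 95868545 on chromosome 12 and 59331058 on chromosome 5 were 955321 and 939088 bases away, with no other control site within 1 kb. Of the 780 isolated members, 185 had a second knockout base beside them (23.7%, 20.8 to 26.9), and the interval includes the share over all members.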

How the data were processed

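The deposited values are of another kind than levels: per the file contents and the labels, the authors deposited 1 list of single-base positions per genotype, each row a chromosome, a start and an equal end. Bismark 0.8.3, HOMER and the build mm9 appear in the submitters' processing notes, with no role given. For the listing threshold, strand, depth and pooling of replicates, the step is not given in the sources used. The genotype of a list comes from its name, which matches the series' design text.

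Tools were numpy 2.4.6, scipy 1.17.1 and matplotlib 3.10.9 under Python 3.11.15. Neither list had a repeated row. Shares have exact Clopper-Pearson 95% intervals and differences of shares normal ones. No test was run, since each genotype has 1 list and the knockout list chose the members. The counting functions gave back every planted site in lists of known content. Members and measures were chosen with earlier results of these data known. Regions named are the 5 fullest windows of 10 kb, the 3 longest runs, and the 3 most crowded and 3 most isolated members, ties taken by chromosome and position. The crowded ones were limited to 1 per window. Isolation was ranked over members without an adjacent knockout site. Bins of distance, the share by nearest knockout site, neighbouring control bases, 1 Mb windows and partner sides were chosen after the data were seen. Sequences were not printed, for want of an mm9 genome.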

Additional observations from a re-analysis of the deposited data

Results flagged for a closer look

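Matches outside the autosomes were left out by the rule. On X, 21 of 54 single control bases (38.9%, 25.9 to 53.1) had the same base in the knockout list. Their density was 0.132 per Mb, against 3.74 members per Mb on chromosome 3, the sparsest autosome. Chromosome 18, with the fewest single control bases of any autosome, had 963. Of the 21 shared bases on X, 2 had a second knockout base beside them (9.52%, 1.17 to 30.4). On sequence without a chromosome position, 9 of 13 single control bases matched (69.2%, 38.6 to 90.9), 2 of them with an adjacent knockout site. They are given as signal outside the chromosomes compared.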

How the results depend on the processing

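Of 23 alternatives over 6 results, 14 stayed within the interval of the main value, 9 did not, and 0 changed sign. Only the differences could change sign, as shares and a ratio cannot. Adding X brought in 21 shared bases, and asking for no control site within 2 bases removed 6 members. Those alternatives could hardly move a share. The share of members with a further knockout site was 46.8% within 100 bases, 93.9% within 10 kb and 85.6% with the adjacent base counted. These directions are fixed by the definition: a smaller radius can only lower the share, and a larger one or an added base only raise it. For members with no other control site within 1 kb the share was 74.9%. Part of that fall is built in, since 42.3% of autosomal control sites were also knockout sites. The adjacent-base excess over knockout-only sites was 5.06 points with no further site within 1 kb. It was 5.80 points with knockout-only sites beside a control site left out, but this rise is built in: the 5311 sites left out included all 2958 partners of members, and 17.2% of the 119549 kept had an adjacent site. The excess over unshared single control bases in further sites was 6.81 points within 100 bases, in place of 0.618 within 1 kb. The ratio of the highest to the lowest autosome fell to 1.18 per control site and 1.16 per knockout site, by change of the denominator. The cause of the remaining changes was not tested, and read depth, which is unknown, limits every count by an amount not measured. No paired analysis was possible because neither deposited list has columns for replicates. Leaving out replicates and a stricter site threshold were not run for the same want of columns.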
